A study of Mus musculus with 6 samples.

Results

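The heavy chain V genes outside the VH1, VH11 and VH12 families were compared between B-1a and B-1b cells. They were taken as every gene name of the table that begins with Ighv, a family number and a hyphen, without families 1, 11 and 12. This rule found 47 of the 100 Ighv genes and of 7834 gene names in all, in 12 families (VH2 to VH10, VH13, VH14 and VH15), and 46 of the 47 passed the filter on low values. B-1a (CD5+) and B-1b (CD5-) cells were FAC sorted from the peritoneal cavity (PerC) of untreated wild-type C57BL/6 male mice, and their poly-A RNA was sequenced. The labels state 3 replicates per group and do not say how many mice each holds, so that p-values measure only the spread between these samples.

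In 13722 of 13747 rows B-1b replicate 3 repeated replicate 1, and in 13710 rows B-1a replicate 3 was the mean of replicates 1 and 2 (relative tolerance 1e-06). All 55 rows of the 47 genes kept both relations, so each group was compared with 2 libraries, replicates 1 and 2. Values were read as FPKM, an inference from their form, and summed to between 324330 and 366992 per library, from which no depth and no counting error can be had. Cd5, the sort marker, was at 0.446 and 0.757 FPKM under the label B-1a and at 0.895 and 0.737 FPKM under the label B-1b, so that it does not separate the groups. B-1a and B-1b therefore stand for the labels of the libraries. Among the B-cell markers, Cd79a was at 1384 FPKM or more in all 4 libraries. In bulk RNA, fewer cells that use a V gene and less RNA per cell cannot be told apart.

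A heavy chain V gene is joined to a D and a J segment in each developing B cell, and it then encodes most of the variable part of the IgM that the cell carries. V genes are grouped into families by sequence, and families lie in overlapping blocks along the locus. VH5 and VH2 lie nearest the D and J segments and are rearranged often in early life, when many B-1 cells are made. B-1 cells are known for natural IgM with a restricted use of V genes, such as that against phosphocholine and phosphatidylcholine.

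All 47 genes lie on the minus strand of chromosome 12 of GRCm38 between 113578504 (Ighv5-2) and 115648387 (Ighv8-12), where lower positions are nearer to D and J. GENCODE M21 annotates 46 of them as V genes and Ighv4-2 as a V pseudogene. Over the exon that encodes the V region, pairs of genes of a family were 79.8% to 98.0% identical (median 90.5% of 104 pairs), and pairs from different families 52.7% to 80.7% (median 63.1% of 977 pairs). For 22 of the 47 genes the nearest other gene among them was over 95% identical, so the authors' quantification could have split reads between such genes.

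The sequences below are germline V exon stretches of 75 bases from GENCODE M21 transcripts, 5′ to 3′ on the coding strand, shown because their genes carry the differences described further on. Each set is the stretch in which the genes named differ most, and capitals mark bases that differ from the first gene of the set. The VH9 stretches lie at chr12:114140823-114140897 (Ighv9-3), chr12:114094059-114094133 (Ighv9-1), chr12:114109132-114109206 (Ighv9-2) and chr12:114300092-114300166 (Ighv9-4).
Ighv9-3: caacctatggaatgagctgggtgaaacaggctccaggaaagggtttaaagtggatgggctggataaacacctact
Ighv9-1: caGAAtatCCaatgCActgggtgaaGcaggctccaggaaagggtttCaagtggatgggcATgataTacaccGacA
Ighv9-2: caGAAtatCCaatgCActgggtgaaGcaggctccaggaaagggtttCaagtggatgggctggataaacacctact
Ighv9-4: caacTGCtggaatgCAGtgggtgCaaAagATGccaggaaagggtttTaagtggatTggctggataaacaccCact

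The VH14 genes, at chr12:114059926-114060000 (Ighv14-3), chr12:113932034-113932108 (Ighv14-1), chr12:113994550-113994624 (Ighv14-2) and chr12:114176519-114176593 (Ighv14-4), differ from Ighv14-3 by 5 or 6 bases in this stretch.
Ighv14-3: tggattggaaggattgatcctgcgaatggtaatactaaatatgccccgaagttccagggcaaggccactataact
Ighv14-1: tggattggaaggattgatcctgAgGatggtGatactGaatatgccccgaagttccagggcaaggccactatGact
Ighv14-2: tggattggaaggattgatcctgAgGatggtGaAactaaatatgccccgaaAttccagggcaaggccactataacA
Ighv14-4: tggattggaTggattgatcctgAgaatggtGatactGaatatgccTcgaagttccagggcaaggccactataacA

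From VH3, Ighv3-1 (chr12:113964564-113964638) is shown beside Ighv3-6 (chr12:114288328-114288402), its nearest gene at 93.5% identity, with 8 differing bases.
Ighv3-1: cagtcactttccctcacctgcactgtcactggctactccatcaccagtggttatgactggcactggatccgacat
Ighv3-6: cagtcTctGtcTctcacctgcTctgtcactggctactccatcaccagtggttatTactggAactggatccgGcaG

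From VH8, Ighv8-5 (chr12:115067695-115067769) is shown beside Ighv8-8 (chr12:115294197-115294271), its nearest gene at 96.2% identity over the V exon, and Ighv8-12 (chr12:115648080-115648154).
Ighv8-5: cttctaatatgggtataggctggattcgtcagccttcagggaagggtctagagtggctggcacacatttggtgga
Ighv8-8: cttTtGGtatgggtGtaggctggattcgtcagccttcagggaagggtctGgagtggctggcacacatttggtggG
Ighv8-12: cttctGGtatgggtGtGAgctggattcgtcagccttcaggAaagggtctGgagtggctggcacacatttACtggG

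Together the 47 genes summed to 3100 and 3266 FPKM in B-1a and to 2757 and 2560 FPKM in B-1b. They made up 50.4% and 55.1% of all Ighv FPKM in B-1a and 40.0% and 43.3% in B-1b, so the groups did not overlap. VH12, whose gene is used against phosphatidylcholine, was at 132 and 105 FPKM in B-1a against 1068 and 551 FPKM in B-1b and enters this denominator. Against the VH1 genes alone, the 47 genes were 51.9% and 56.6% of the sum of both in B-1a and 48.5% and 48.9% in B-1b, again without overlap. The VH1 genes were not uniform, with log2 fold changes, B-1b over B-1a, between -1.73 and 4.37 among the 49 tested. The VH1 sum holds 5 genes in which replicate 3 departs from the relations above, and the comparison was not repeated without them. Expression was concentrated in few genes. The 10 highest held 59.4% and 66.6% of the 47 genes' FPKM in B-1a and 67.7% and 69.6% in B-1b, and 9 genes were among the 10 highest by mean in both groups. Ighv9-3 was the highest gene in both B-1a libraries, and Ighv6-3 in both B-1b libraries.

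To ask which of these V genes differed between the subsets, log2(FPKM + 1) was compared over all 7557 genes that passed the filter of at least 1 FPKM in 2 libraries. With limma, 0 of the 46 tested V genes passed a false discovery rate (FDR) of 0.05 (lowest adjusted p = 0.107), beside 0.198% of all genes tested (0.159% higher and 0.0397% lower). By log2 fold change, 30 of the 46 were lower and 16 higher, beside 43.8% and 56.2% of all genes. At an unadjusted p under 0.05, limma gave 13 lower (28.3%) and 3 higher (6.52%) in B-1b, beside 4.27% and 5.39% of all genes, together 16 genes beside 9.66%. An ordinary linear model of each gene also gave 0 genes at the FDR and 12 of the V genes at an unadjusted p under 0.05. The 16 genes at an unadjusted p under 0.05 were 10 without B-1a replicate 1. In 20 genes (43.5%) both B-1b libraries lay below both B-1a libraries, beside 17.3% of all genes tested, and in 9 (19.6%) both lay above, beside 25.8%. The remaining 17 genes overlapped, and 43.1% of all genes did not overlap in either direction.

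The median log2 fold change, B-1b over B-1a, was -0.40 over the 46 genes and 0.05 over all genes tested. It was -0.24 without B-1b replicate 2, a change of over 1.5 times. The 49 tested VH1 genes had a median of -0.45, with 30 of them (61.2%) below and 11 (22.4%) above without overlap, and the difference between VH1 and the smaller families was not tested. The distribution of fold changes places both sets of V genes to the left of all genes over most of its range.

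**Figure D1:**
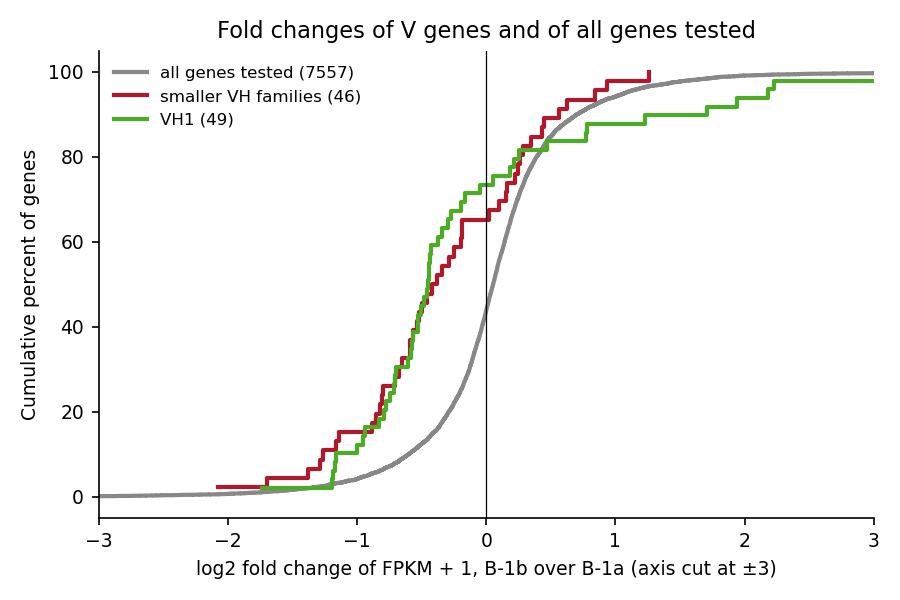
Cumulative percent of genes (vertical axis) against the log2 fold change of FPKM + 1, B-1b over B-1a (horizontal axis, cut at ±3), for all genes tested, the smaller VH families and VH1. The medians are 0.05, -0.40 and -0.45.

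Among the 12 smaller families, VH9 had the widest difference in share of all Ighv FPKM. All 4 of its genes were lower in B-1b, 3 of them without overlap, and the family was at 8.58% and 9.42% of Ighv FPKM in B-1a against 4.34% and 4.77% in B-1b. Ighv9-3 (chr12:114140692-114141122) was at 375 and 412 FPKM in B-1a against 216 and 210.0 FPKM in B-1b. The groups lay far apart relative to the spread within each, with a log2 fold change of -0.88 ± 0.15 (SE, limma adjusted p = 0.252). Ighv9-1 (chr12:114093928-114094358) was at 89.7 and 89.3 FPKM against 37.6 and 30.4 FPKM. Its fold change on the log2 scale was -1.38 ± 0.17 (SE, limma adjusted p = 0.175), while each of its transcript rows was lower in both B-1b libraries. Ighv9-2, 95.4% identical to Ighv9-1, was at 18.2 and 20.3 FPKM against 6.63 and 9.69 FPKM. In the fourth gene, Ighv9-4, the groups overlapped, at 44.3 and 36.4 FPKM against 38.5 and 31.7 FPKM. Its nearest gene, Ighv9-3, is 91.5% identical, and both Ighv9-1 and Ighv9-4 differ from Ighv9-3 by 14 bases in the stretch shown.

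VH2 genes lie interspersed with VH5 genes at the D-proximal end of the locus. Of 8 tested, 7 were lower in B-1b and 4 of these did not overlap, and the share of VH2 was 5.47% ± 0.601 in B-1a against 2.68% ± 0.301 in B-1b (SD, n = 2). Ighv2-2 (chr12:113588267-113588702), the most abundant, was at 137 and 174 FPKM against 70.5 and 57.8 FPKM, both B-1b libraries below both B-1a libraries. This is a log2 fold change of -1.26 ± 0.21 (SE, limma adjusted p = 0.239). Ighv2-4, 98.0% identical to Ighv2-2 over the V exon, was at 5.25 and 3.48 FPKM against 3.95 and 0.877 FPKM, where the groups overlapped. Ighv2-3 was at 45.1 and 47.8 FPKM against 27.9 and 24.5 FPKM. Ighv2-9-1 and Ighv2-6 were lower without overlap as well, with log2 fold changes of -0.85 and -0.59 and adjusted p-values of 0.487 and 0.431 from limma, and Ighv2-9-1 was at -0.49 without B-1b replicate 2. Ighv2-6-8 did not follow the other genes of the family, at 6.08 and 6.31 FPKM against 6.59 and 5.99 FPKM.

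VH5, the family at the very end of the locus next to the D segments, had 9 tested genes, 7 lower and 2 higher, and 5 of the lower did not overlap. Its share was 7.88% ± 0.397 in B-1a against 5.46% ± 0.0749 in B-1b (SD, n = 2). Ighv5-2 (chr12:113578504-113578990), the functional V gene nearest to D and among those used often in fetal and neonatal rearrangements, was at 15.6 and 11.9 FPKM in B-1a against 8.35 and 6.34 FPKM in B-1b. Its fold change on the log2 scale was -0.82 ± 0.25 (SE, limma adjusted p = 0.431), and its groups did not overlap. Ighv5-17, the most abundant VH5 gene, was at 153 and 225 FPKM against 169 and 119 FPKM, where the groups overlapped.

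Several VH5 genes varied widely between the B-1a libraries. Ighv5-9-1 had the largest fold change of the tested V genes (log2 fold change -2.08 ± 0.58 SE, limma adjusted p = 0.398), at 31.0 and 10.3 FPKM against 2.85 and 4.28 FPKM. That value moved between -2.82 and -1.33 with each library left out, so the size of the difference rests much on B-1a replicate 1. Ighv5-6 was at 8.90 and 49.4 FPKM in B-1a against 33.4 and 33.6 FPKM in B-1b, and its direction turned with B-1a replicate 1 left out. Ighv5-16 was at 105 and 90.9 FPKM against 62.6 and 60.7 FPKM, groups that did not overlap. Its transcript rows changed places between libraries, the first row being at 60.2 FPKM in B-1b replicate 1 and at 2.83 FPKM in B-1b replicate 2, where the second row was at 57.9 FPKM. Only the sum of the rows is therefore comparable for Ighv5-16, and the same held for Ighv5-15 (rows at 0 and 8.73 FPKM in B-1a replicate 1 and at 15.3 and 0.291 FPKM in B-1a replicate 2).

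VH14 and VH3 were lower in B-1b in most of their genes, 3 of 4 and 3 of 5. Ighv14-3 (chr12:114059845-114060321) was at 86.7 and 76.0 FPKM in B-1a against 33.8 and 31.5 FPKM in B-1b, and its log2 fold change stood at -1.29 ± 0.15 (SE, limma adjusted p = 0.173). Ighv14-4, 95.1% identical to it, overlapped between the groups, at 44.8 and 29.9 FPKM against 41.1 and 40.6 FPKM. Ighv14-2, the most abundant VH14 gene, was at 159 and 139 FPKM against 126 and 97.3 FPKM, lower in both B-1b libraries with a log2 fold change of -0.42, and -0.23 without B-1b replicate 2. Summed, VH14 was at 5.13% ± 0.527 and 3.30% ± 0.105 of Ighv FPKM (SD, n = 2). The fourth VH14 gene, Ighv14-1, was lower without overlap.

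Ighv3-1 (chr12:113964388-113964818) had the smallest p of the 46 tested V genes. It was at 36.5 and 40.3 FPKM in B-1a against 11.7 and 10.5 FPKM in B-1b, and its log2 fold change stood at -1.70 ± 0.16 (SE, limma adjusted p = 0.107). Leaving out each library moved it only between -1.77 and -1.63. Ighv3-6, the most abundant VH3 gene, was at 198 and 201 FPKM against 136 and 155 FPKM, also without overlap. Ighv3-4 and Ighv3-5 lay the other way at low levels, between 2.38 and 4.75 FPKM in B-1a and between 3.99 and 5.19 FPKM in B-1b, each without overlap. VH3 as a whole was at 4.36% ± 0.117 in B-1a against 2.81% ± 0.523 in B-1b (SD, n = 2).

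On the log2 scale all tested genes of VH6, VH7, VH10 and VH13 were higher in B-1b, 8 of the 16 that were higher, and the others lay in VH2, VH3, VH5, VH8 and VH14. VH10, a family described in antibodies to DNA, was at 4.45% ± 0.760 in B-1a against 5.81% ± 0.963 in B-1b (SD, n = 2). Ighv10-1 (chr12:114479005-114479451) was at 152 and 219 FPKM in B-1a against 258 and 283 FPKM in B-1b, above both B-1a libraries (log2 fold change 0.56 ± 0.24 SE, limma adjusted p = 0.569), and its log2 fold change was 0.30 without B-1a replicate 1. Its relative Ighv10-3, 96.8% identical, was at 88.9 and 76.5 FPKM against 95.4 and 101 FPKM, also without overlap. The stretches in which the VH10 genes differ most, by 6 bases, lie at chr12:114479204-114479278 (Ighv10-1) and chr12:114523640-114523714 (Ighv10-3).
Ighv10-1: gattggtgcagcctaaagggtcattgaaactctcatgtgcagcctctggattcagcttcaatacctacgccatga
Ighv10-3: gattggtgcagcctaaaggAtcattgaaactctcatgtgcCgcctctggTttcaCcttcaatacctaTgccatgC

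Ighv13-2, the only VH13 gene of the table, was at 17.7 and 14.9 FPKM against 24.0 and 42.6 FPKM, with the larger part of the difference in B-1b replicate 2. Its fold change on the log2 scale was 0.94 ± 0.33 (SE, limma adjusted p = 0.500) and 0.53 without that library. Ighv6-6 was at 124 and 168 FPKM in B-1a against 192 and 199 FPKM in B-1b, without overlap. Ighv6-3 (chr12:114391712-114392169) was at 204 and 339.5 FPKM against 349 and 322 FPKM, where B-1a replicate 2 lay within the range of B-1b. The share of VH6 was accordingly wide in B-1a, at 5.34% and 8.58%, and 7.86% and 8.83% in B-1b, and it differed by -0.24 percentage points, the other way, without B-1a replicate 1. Ighv6-4 was between 0.0943 and 0.580 FPKM and was not tested.

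VH8 was divided. Ighv8-5 (chr12:115067560-115068002) was at 24.0 and 29.6 FPKM in B-1a against 50.4 and 46.9 FPKM in B-1b, and its log2 fold change stood at 0.84 ± 0.18 (SE, limma adjusted p = 0.292). Ighv8-8, the gene most like it, was at 115 and 99.1 FPKM against 89.6 and 57.1 FPKM, so this pair lay in opposite directions, each without overlap. The difference between their fold changes was not tested. Ighv8-12, the most abundant VH8 gene, was at 170 and 116 FPKM against 115 and 86.3 FPKM, with its nearest B-1a and B-1b values almost equal. Ighv8-4 was the gene with the largest fold change upward, at 0.891 and 1.94 FPKM against 5.96 and 3.57 FPKM (log2 fold change 1.26, limma adjusted p = 0.477), levels near the filter. VH8 together was at 4.73% ± 0.617 and 3.63% ± 0.373 of Ighv FPKM (SD, n = 2).

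VH7 includes Ighv7-1, the V gene of the prototypical natural antibodies to phosphocholine. Ighv7-1 was at 65.3 and 7.21 FPKM in B-1a against 20.1 and 28.6 FPKM in B-1b, the widest spread within a group among the tested V genes, and both B-1b libraries lay between those of B-1a. Its mean was lower in B-1b (24.3 against 36.3 FPKM) while its log2 fold change was 0.10 ± 1.08 (SE). Ighv7-3, the most abundant VH7 gene, was at 168 and 181 FPKM against 209 and 210.2 FPKM, higher in B-1b without overlap (log2 fold change 0.27 ± 0.14 SE, limma adjusted p = 0.638). The VH7 share was 3.62% ± 0.406 and 3.83% ± 0.497 (SD, n = 2), a difference within the spread, while as a percent of the smaller families alone VH7 was higher in B-1b without overlap. In VH4, Ighv4-1 was at 42.2 and 56.1 FPKM against 47.6 and 38.0 FPKM, groups that overlapped, and VH4 was at 0.849% and 0.689% of Ighv FPKM. Ighv15-2, alone in VH15, was at 4.62 and 1.69 FPKM against 1.82 and 1.54 FPKM and overlapped too.

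**Figure D2:**
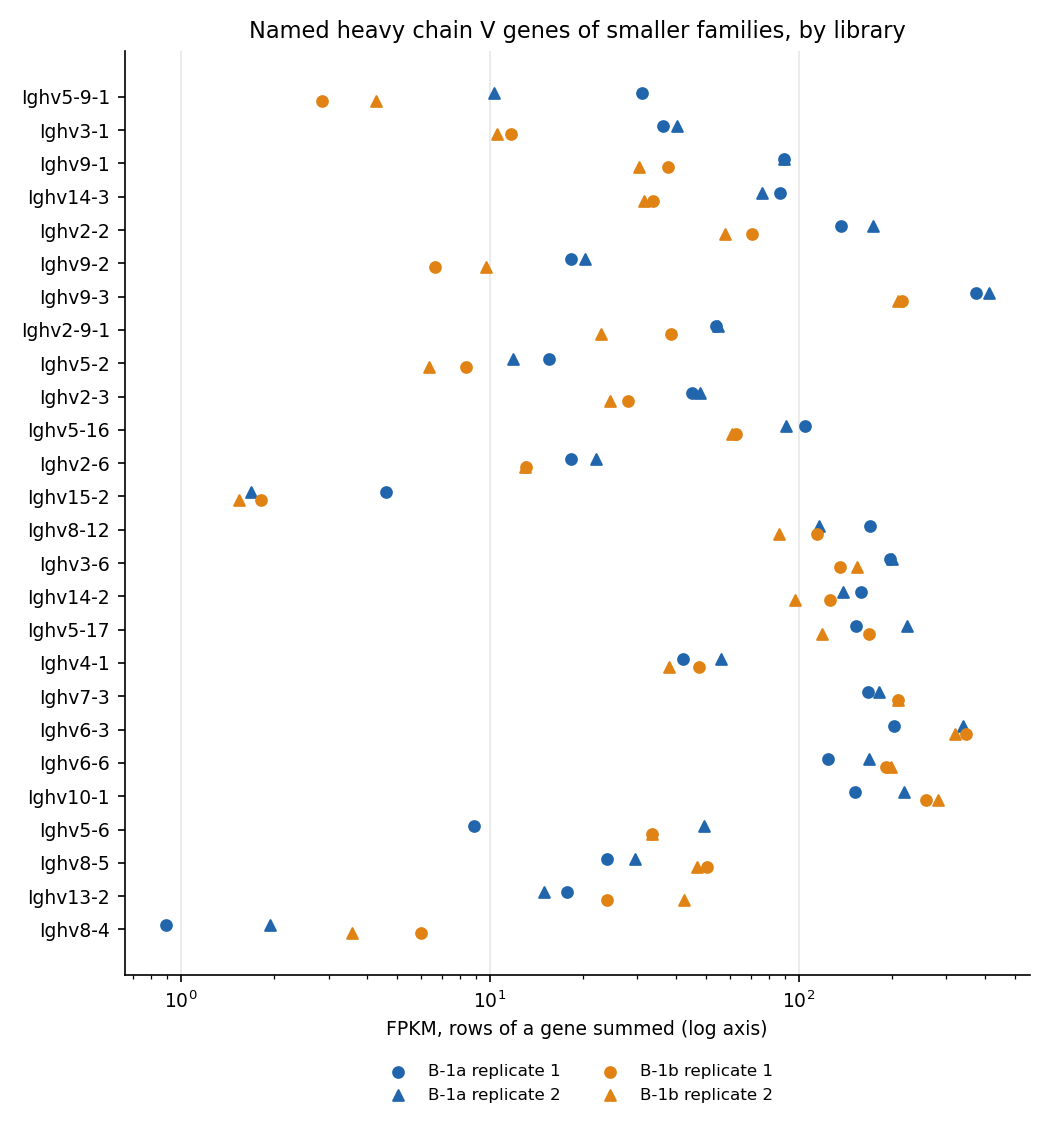
FPKM of 26 named V genes (horizontal log axis) in each library, ordered from the lowest to the highest log2 fold change, with B-1a libraries in blue and B-1b libraries in orange (circles replicate 1, triangles replicate 2). Ighv3-1, Ighv9-1, Ighv14-3 and Ighv2-2 separate the groups downward and Ighv8-5 upward, while Ighv5-6 has its B-1b values between those of B-1a.

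The shares of the families are one value per library. In VH2, VH3, VH4, VH5, VH8, VH9, VH14 and VH15 both B-1b values were below both B-1a values, in VH10 and VH13 both were above, and in VH6 and VH7 the groups overlapped. An exact two-sided permutation test of 2 libraries against 2 cannot give less than p = 0.333, which it gave in the 10 families without overlap, so no family passed a threshold of 0.05. Among these 12 families, in percent of Ighv FPKM with VH12 in the denominator, VH9 had the widest difference (-4.44 percentage points), followed by VH2 (-2.79), VH5 (-2.42) and VH14 (-1.83). Toward B-1b, VH6 (1.38) and VH10 (1.36) had the widest of the 12, but VH6 overlapped and was at -0.24 without B-1a replicate 1. VH10 was at 0.678 without B-1b replicate 2, 0.822 without B-1a replicate 1 and 2.04 without B-1b replicate 1, VH13 (0.265) at 0.452 with B-1b replicate 1 left out but 0.0780 with B-1b replicate 2 left out, and VH8 (-1.10) at -0.665 without B-1a replicate 1. The order depends on the denominator. As a percent of the 12 smaller families alone, VH6 differed by 6.92 points and VH10 by 5.49, VH9 by -6.12, VH2 by -3.89 and VH7 by 2.28, each without overlap, while VH4, VH8 (-0.27) and VH15 overlapped. With the 5 VH1 genes whose replicate 3 departs taken out of the denominator, VH4 (-0.071), VH8 (-0.64) and VH15 overlapped, and VH6 (2.57) and VH10 (2.20) were higher in B-1b without overlap. Without a denominator, summed FPKM were lower in B-1b without overlap in VH2, VH3, VH5, VH9 and VH14, and higher in VH6, VH10 and VH13.

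**Figure D3:**
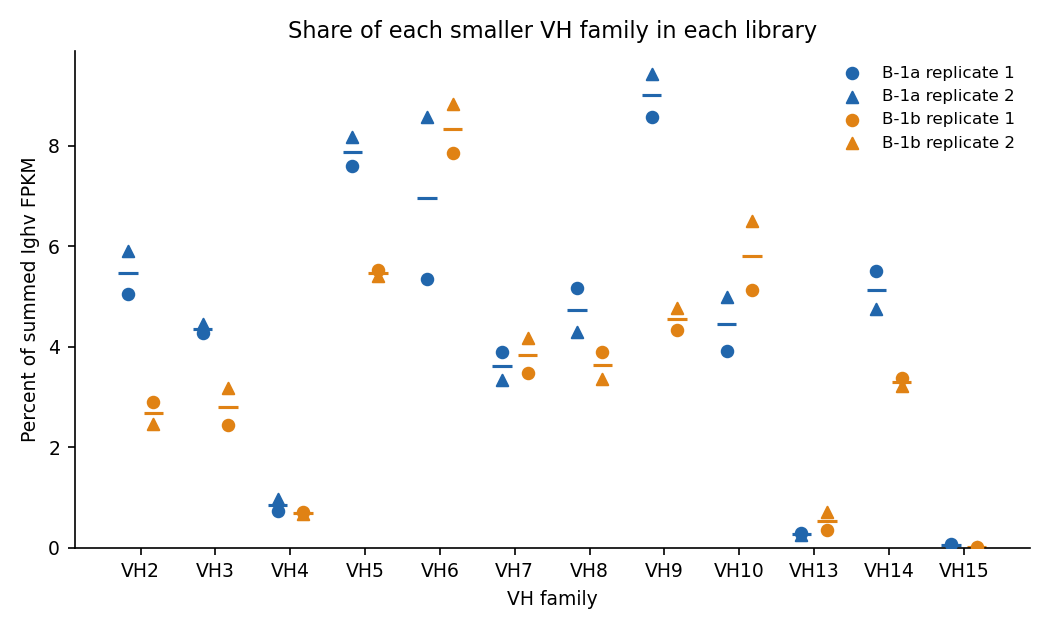
Percent of summed Ighv FPKM (vertical axis) of the 12 families (horizontal axis) in each library, with B-1a in blue, B-1b in orange and bars at the mean of 2 libraries. The means of VH2 are 5.47% (B-1a) and 2.68% (B-1b), those of VH10 are 4.45% and 5.81%, and the B-1b libraries of VH9 are at 4.34% and 4.77%.

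Read along the locus, the 15 tested genes nearest to D and J (Ighv5-2 to Ighv5-16, from 113578504 to 113839010) were lower in 12 cases, 9 of them without overlap, and higher in 3, all with overlap. Their median log2 fold change was -0.71. The next 15, from Ighv5-17 to Ighv7-4, were lower in 11 and higher in 4, with a median of -0.38. The 16 farthest, from Ighv3-4 to Ighv8-12, were higher in 9, 8 of these without overlap, and lower in 7, 4 of these without overlap, with a median of 0.21. In summed FPKM, the nearest genes were at 605 and 579 in B-1a and 384 and 330 in B-1b, and the farthest at 1180 and 1334 against 1384 and 1356. These are descriptions without a test, and families lie in blocks along the locus, so that position and family cannot be told apart.

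**Figure D4:**
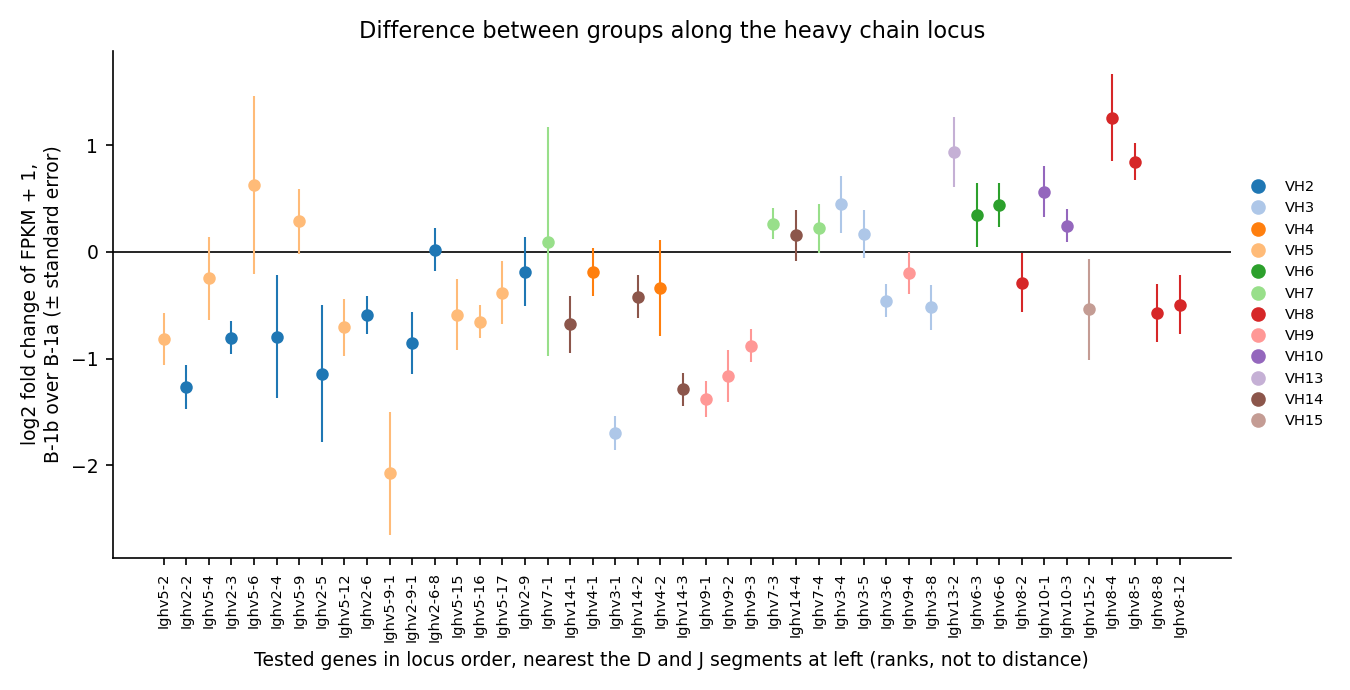
Log2 fold change of FPKM + 1, B-1b over B-1a (vertical axis, bars are the standard error from limma), of the 46 tested genes in their order along the locus, nearest to D and J at the left, coloured by family. The D-proximal VH2 and VH5 genes lie mostly below 0 (12 of the first 15 genes), and the VH6, VH10 and VH13 genes toward the right lie above 0.

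Libraries of a group differed less from each other in these genes than libraries of different groups. The median absolute difference on the log2 scale over the 46 genes was 0.35 between the B-1a libraries and 0.28 between the B-1b libraries, against 0.42 to 0.81 for the 4 pairs of a B-1a and a B-1b library. Over all genes tested it was 0.20 between the B-1a libraries and 0.32 between the B-1b libraries, against 0.27 to 0.35 for these pairs. There the B-1b libraries differed more from each other than B-1b replicate 2 did from either B-1a library. In 6 genes the B-1a libraries differed by more than 1 (Ighv7-1, Ighv5-6, Ighv5-9-1, Ighv15-2, Ighv5-4 and Ighv2-5), and in 2 the B-1b libraries did (Ighv2-4 and Ighv2-5). The 20 tested genes not chosen for naming, of which 8 were higher and 12 lower, had log2 fold changes between -1.14 and 0.44 and adjusted p-values of at least 0.529 from limma, and the 21 with Ighv6-4 had mean levels between 0.326 and 90.4 FPKM.

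Other genes of the heavy chain locus were split in direction. Of 8 tested constant region and J genes, 4 were higher and 4 lower, and limma called 1, Ighm, the IgM constant region. Ighm was at 32.5 and 38.7 FPKM against 2585 and 2781 FPKM (log2 fold change 6.20 ± 0.17 SE, limma adjusted p = 0.0106), while its B-1a replicate 3 departs from the mean of the others. All Ighv genes together were at 6147 and 5926 FPKM in B-1a against 6892 and 5907 FPKM in B-1b, without such a gap. The paper characterizes B-1 cells as IgM high, so the Ighm values need not reflect Ighm RNA per cell, and their cause was not tested. Ighd, the IgD constant region, was at 436 and 330 FPKM in B-1a against 214 and 241 FPKM in B-1b, without overlap (limma adjusted p = 0.410). Of 15 tested B-cell receptor partners and transcription factors of immunoglobulin genes, 4 were higher and 11 lower, and 0 passed the FDR with limma (1 at an unadjusted p under 0.05). Among them Pou2af1, the coactivator of octamer factors at immunoglobulin promoters, was at 260 and 249 FPKM against 215 and 155 FPKM. The gene at an unadjusted p under 0.05 was Tcf4, an E protein transcription factor, at 15.9 and 24.7 FPKM against 41.4 and 31.7 FPKM, higher in B-1b (log2 fold change 0.84). Of 9 tested genes of IgM assembly and secretion, 7 were higher and 2 lower, with 0 past the FDR and 1 at an unadjusted p under 0.05. Of 11 genes of V(D)J recombination, 2 were tested, 1 in each direction, with 0 past the FDR and 0 at an unadjusted p under 0.05.

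Markers of cell types were read beside these values. Of 4 tested B-1 markers 3 were higher and 1 lower, and the 5 in the table summed to 33.6 to 49.7 and 81.5 to 99.6 FPKM, led by Itgam and Cd9. Among B-2 markers, Ighd was lower in B-1b without overlap, as were 20 of these V genes, while Fcer2a was 9.71 to 11.5 FPKM in B-1a and 13.1 to 17.6 FPKM in B-1b and Cr2 was at 0 in replicate 2 of each group. Macrophage markers (5 of 5 tested) summed to 3353 to 4452 FPKM in B-1a and 4087 to 7002 FPKM in B-1b, nearly all of it Lyz2. Of these 5, 4 were higher in B-1b and 2 had an unadjusted p under 0.05 with limma. Lyz2, among the 4, overlapped between the groups, at 4345 and 3238 FPKM against 3927 and 6824 FPKM. Adgre1 was at 51.1 and 56.0 FPKM against 90.4 and 101 FPKM, Csf1r at 28.5 and 22.8 FPKM against 39.7 and 35.1 FPKM and Cd14 at 3.41 and 12.7 FPKM against 13.7 and 22.9 FPKM, all without overlap, while Timd4 was lower at 23.4 and 23.8 FPKM against 16.5 and 18.9 FPKM. Plasma cell markers (3 of 4 tested) summed to 96.6 to 100.1 and 104 to 140 FPKM, with Sdc1 under 1 FPKM in all libraries. T-cell markers (4 of 5 tested) summed to 12.8 to 13.2 and 9.62 to 12.4 FPKM, and mast cell markers (2 of 3 tested) to 29.0 to 31.3 and 26.9 to 50.6 FPKM. Neutrophil and NK cell markers were not analysed here. The part of these cells in the V gene differences was not tested.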

How the data were processed

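Poly-A RNA of B-1a and B-1b cells was measured, with 3 replicates per group by the labels. HISAT2, StringTie and Ballgown were run by the authors on GRCm38/mm10. The annotation release and tool versions were not given in the sources used here. Deposited values were read as FPKM per transcript row, a unit inferred from their form. Whole reads were not recovered and depth is unknown. There are 0 further sample columns.

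The members and lists were chosen with earlier results of these data known. Transcript rows were added up per gene (8 of the 47 genes have several). After a filter of 1 FPKM or more in 2 or more of 4 libraries, limma 3.58.1 was applied to log2(FPKM + 1) (R 4.3.3, intensity trend, Benjamini-Hochberg over 7557 genes), always B-1b over B-1a, which understates the change of low genes. Replicates numbered 3 were left out, as they derive from the others. Shares are percentages of summed Ighv FPKM that was deposited by the authors, compared by exact permutation tests. Identity was computed from global alignments of GENCODE M21 V exons. All 47 names matched GENCODE. Lists were read from the same fit, and results of some markers are not reported here. Other steps used Python 3.11.15, numpy 2.4.6, pandas 2.3.3 and scipy 1.17.1.

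Named are the genes at an unadjusted p under 0.05, the highest of each family in either group, the 10 highest over all 4 libraries, and the 5 largest fold changes in each direction (a departing replicate 3, also in the rule, occurred in 0 of them). Other members named after their values were seen are relatives of these or genes with wide spread. Alternatives were other treatments of the replicate columns, scalings, filters, pseudocounts and denominators, tests without sharing of the spread or with the replicate number as a block, transcript rows kept apart, and each library left out.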

Additional observations from a re-analysis of the deposited data

How the results depend on the processing

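Of 336 log2 fold changes of the 26 named genes under other settings, 333 kept their direction. The exceptions came with 1 library left out, where Ighv5-6 ranged from -0.55 to 1.80 (lowest without B-1a replicate 1), Ighv4-1 from -0.39 to 0.0113 (highest without B-1a replicate 2) and Ighv6-3 from -0.0195 to 0.71 (lowest without B-1a replicate 1). Of 132 family differences, 128 kept their direction. The exceptions were VH4 as a share of the smaller families alone (0.0547 percentage points), VH6 (-0.24 to 3.00 over the leave-outs, lowest without B-1a replicate 1) and VH7 (-0.137 to 0.566, at -0.0722 without B-1a replicate 2 and lowest without B-1b replicate 2, and 0.7496 without the 5 VH1 genes whose replicate 3 departs).

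With all 6 columns as deposited, limma called 17 of the V genes at the FDR (26 at an unadjusted p under 0.05) and 1241 genes in all, since columns derived from others lower the spread by construction. In every other setting 0 V genes passed the FDR. Genes called over the whole table, 15 in the values reported, were 7 without a filter, 6 with transcript rows apart, 0 without sharing of the spread, 0 with the replicate number as a block and 0 with any library left out. V genes at an unadjusted p under 0.05 numbered 10 to 17 over the leave-outs and 15 with the block. Same-numbered libraries shared no deviation over all genes (correlation 0.00124 over 7557 genes). With 2 libraries per group this is 1 deviation per gene and group, so it cannot decide whether the numbers pair libraries. The labels do not say so either. With B-1b replicates 1 and 3 as their mean, 0 V genes passed the FDR. Scaling to equal upper quartiles gave 15 V genes higher and 31 lower, against 16 and 30. The median fold change of the V genes stayed between -0.53 and -0.24 over the leave-outs. Precision is limited by 2 libraries per group.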
